A study of Oryzias latipes with 4 samples.

Results

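Long spliced transcripts in compact loci were 1169 of the 93896 transcript models of the female medaka (Oryzias latipes) ventral telencephalon, hypothalamus and pituitary. A model was included when it had more than 1 exon (its length was below the span of its locus), a length of at least 5000 bases, a locus span below 50 kb and a mean of at least 1 FPKM over the 4 libraries. FPKM, the unit of the deposited values, is the number of mapped fragments scaled to model length and library size. Of 1616 spliced models that met the limits on length and span, 447 fell below the limit on FPKM and 1169, or 72.3%, met it.

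RNA and ribosome footprints were each measured in 2 libraries, LD_RNAseq and LD_Riboseq, all from 1 condition: fish held under what the labels call SD were moved to what they call LD, and the tissue was taken 16 h later. The fish came from a local dealer, and the labels give neither their strain or age nor how many fish each library holds. They do not say that replicates came from separate fish, so p-values reflect only how far these samples lie apart, which may be technical. The comparison addresses how the ribosome load of a transcript relates to its RNA level. Because all libraries share the condition, nothing can be said about the response to the transfer. Depth is unknown, since only FPKM are given, and the number of libraries limits the precision.

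Ribosome profiling sequences the stretches of mRNA that translating ribosomes protect from nuclease, and footprints relative to RNA measure ribosome density. Ribosomes translate the coding region, while the untranslated ends of an mRNA carry few of them. Long brain mRNAs encode much of the large machinery of neurons and glia, such as cytoskeletal scaffolds, motors, ubiquitin ligases, chromatin regulators and coat proteins of vesicles. Whether the footprint FPKM was computed over coding regions or whole models is not given in the sources used here. If the length used differed between the assays, that is part of each difference below. In this bulk tissue, fewer cells of a type and less RNA per cell cannot be told apart.

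The models had a median length of 6032 bases, with quartiles of 5435 and 7307 and a longest model of 25931. Their loci spanned 5127 to 49684 bases, with a median of 18782. Exons filled a median of 34.4% of the locus, against 16.8% in the 46248 spliced models of the same FPKM and span limits that were shorter than 5000 bases. Those shorter models had a median length of 632 bases. The exonic share is length over span, so the limits that chose the long models also shape this contrast. The long models lay on all 24 chromosomes, with 25 to 72 on each. Just inside the limits lay slc38a4, an amino acid transporter gene, at 5000 bases, and dmd, which encodes dystrophin, with a span of 49684 bases. Just outside lay ercc6, a DNA repair gene, at 4991 bases, tln1, which encodes talin, with a span of 50327 bases, and wdr6 with a mean of 0.98 FPKM.

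The table lists models by number, without gene names. A model took the name of a gene in RefSeq's table of ASM223467v1 when at least 50% of each span was shared. Of the 1169 models, 452 received a gene symbol, 277 matched a gene known only by a locus number, 32 matched a gene for which another model was better, and 408 matched none. Symbols were thus more frequent than in the shorter models, at 38.7% against 11.2%. Of the matched genes, 727 were protein-coding and 2 were transcribed pseudogenes. Another model overlapped 1067 of the long models, and without strand the reads of such pairs cannot be told apart.

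The libraries carried the markers of the labelled tissue. The 5 matched pituitary markers, among them pomc and cga, summed to 642 and 412 FPKM in RNA-seq 1 and 2 and to 1830 and 1870 in Ribo-seq 1 and 2. The 4 matched neuronal markers summed to 553 and 579 FPKM and to 1830 and 2900, in the same order. Across the whole table, 5199 and 7139 models were listed at 0 in RNA-seq 1 and 2, and 31382 and 33734 in Ribo-seq 1 and 2.

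None of the long transcripts was listed at 0 in any library, but their lowest values in Ribo-seq 1 and 2 were 0.038 and 0.00586 FPKM. Their median was 7.05 and 7.11 FPKM in RNA-seq 1 and 2 and 3.33 and 5.13 in Ribo-seq 1 and 2. In the shorter spliced models the medians were 5.38 and 5.04 in RNA-seq and 1.83 and 2.53 in Ribo-seq, in the same order of libraries. Of the shorter models, 6657 and 6971 were listed at 0 in Ribo-seq 1 and 2. At the same FPKM a longer model holds more fragments, so the number listed at 0 depends on length. The 2 Ribo-seq libraries differed in scale, so levels were also compared after scaling by median ratios, in which a library's factor is its median FPKM relative to the models' geometric means. A log2 difference below is the log2 of scaled Ribo-seq FPKM plus 1 minus that of RNA-seq. A positive value is relative to the typical model used for the scaling, since FPKM cannot show an overall difference in level.

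Long transcripts were called in both directions. Over all 50625 tested models, 23.9% were called higher in Ribo-seq and 33.7% lower (limma, Benjamini-Hochberg adjusted p below 0.05). Of the 1169 long transcripts, 260 were called higher (22.2%), 219 lower (18.7%) and 690 neither, so 41.0% were called in either direction, against 57.6% of all models. The share called higher was near that of all models. Of the long transcripts, 83 had a mean RNA-seq FPKM below 2, so they met the limit on mean FPKM only together with their footprints. The counts include them, as the counts of all models include models below that level. By at least 2-fold, 112 long transcripts were called higher (9.58%, against 17.8% of all models) and 132 lower (11.3%, against 30.8%). With FPKM as deposited, both Ribo-seq values lay above both RNA-seq values in 102 long transcripts (8.73%, against 17.7% of all models). Both lay below in 757 (64.8%, against 58.0%).

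These counts depend on the scaling and on each RNA-seq library. Without scaling, which moved the median of all tested models by -0.59, 7 long transcripts were called higher (0.599%, against 4.79% of all models) and 357 lower (30.5%, against 41.8%, with 46.6% of all models called in either direction). Without RNA-seq replicate 1, 4 were called higher and 49 lower. The counts were 7 and 42 when RNA-seq replicate 2 was left out. In those fits a single RNA-seq library is assumed to vary like the Ribo-seq libraries. For all models the counts then fell from 12116 higher and 17048 lower to 1543 and 9458 without RNA-seq replicate 1, and to 1529 and 9543 without RNA-seq replicate 2.

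**Figure D1:**
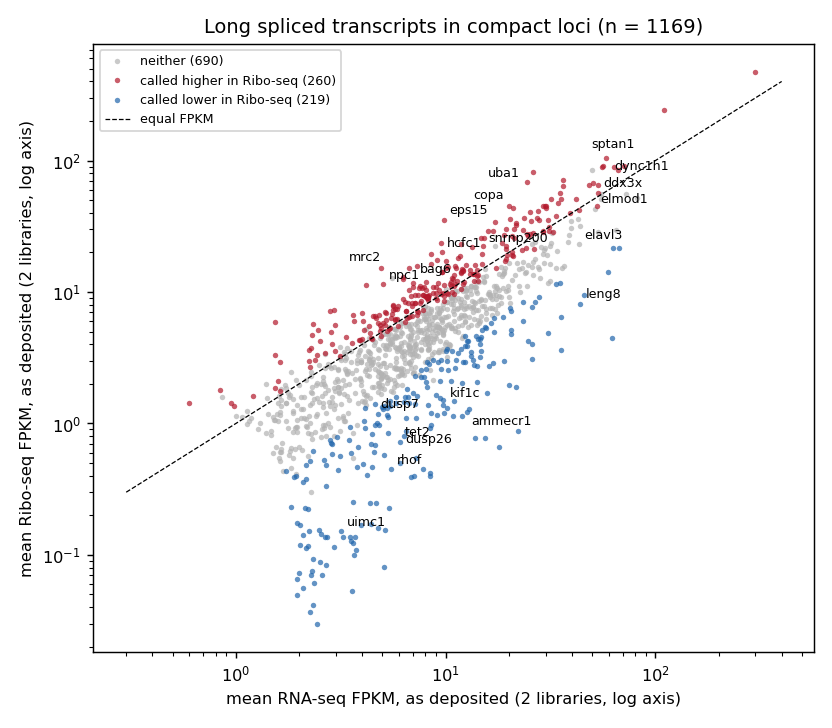
Mean Ribo-seq FPKM against mean RNA-seq FPKM of the 1169 long spliced transcripts, as deposited, with both axes logarithmic. Points are coloured by the limma call after scaling (260 higher, 219 lower, 690 neither), and 36 transcripts with at least 2 FPKM of RNA lie below 0.2 FPKM of footprints.

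The spread of footprints relative to RNA in the long transcripts was close to that of the length classes next to them. Medians are given over models whose RNA-seq FPKM averaged 2 or more, a level at which the limit on mean FPKM is met whatever the footprints. There the 1086 long transcripts had a median log2 difference of 0.05, with quartiles of -0.49 and 0.57 and a range from the 5th to the 95th percentile of -1.49 to 1.28. The 41327 shorter spliced models had a median of -0.30, with quartiles of -1.51 and 0.79. All 45399 tested models of that RNA level had a median of -0.36. The interquartile range was 1.06 in the long and 2.31 in all shorter models, but 1.10 in spliced models of 4000 to below 5000 bases and 1.23 in those of 3000 to below 4000. The difference between replicates was small beside these ranges: in transcripts of 5000 to below 6000 bases the median absolute log2 difference between replicates was 0.115 for RNA-seq and 0.184 for Ribo-seq. It was 0.391 and 0.277 in models below 300 bases. The median of the long transcripts turned to -0.61 without scaling and -0.27 with upper quartile scaling.

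At matched RNA level the direction of the comparison depended on which shorter models were used. For each long transcript, the median log2 difference of the shorter models in the same bin of RNA-seq FPKM (0.5 wide on the log2 scale) was subtracted from its own. Over all spliced models, the long transcripts lay above the shorter ones by a median of 0.22 (quartiles -0.33 and 0.79), and 657 of 1086 lay above. The value was 0.21 with Ribo-seq 1 and 0.23 with Ribo-seq 2, and 0.16 to 0.25 over the 4 pairs of an RNA-seq with a Ribo-seq library. The sign changed with RNA level. At 2 to 2.83 FPKM the long transcripts had a median of -0.20 and the shorter models one of -0.88, while at 11.3 to 16 FPKM the medians were 0.03 and 0.19. Restricted to an RNA-seq FPKM of at least 10, the median of the matched differences was -0.11.

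Among models with a gene symbol, the long transcripts lay below the shorter ones at each RNA level that held at least 4 of them. The median matched difference was -0.61 (quartiles -1.12 and -0.20), and 63 of the 422 long transcripts, or 14.9%, lay above the shorter models of their bin. It was -0.59 with Ribo-seq 1 and -0.63 with Ribo-seq 2, and -0.64 to -0.56 over the 4 library pairs. It stayed between -0.71 and -0.57 under each scaling, pseudocount and filter tried, in models that overlap no other and with each library left out. At 8 to 11.3 FPKM of RNA, 83 long transcripts had a median of 0.33 and 571 shorter models one of 0.99, and at 11.3 to 16 FPKM the medians were 0.37 and 1.24. Genes known only by a locus number gave -0.63 in 256 long transcripts. Where neither side matched a gene, the 377 long transcripts lay 0.25 above the 32449 shorter models. There too the sign varied with RNA level. The medians of long and shorter models were -0.90 and -1.08 at 2 to 2.83 FPKM, and -0.29 and -0.21 at 11.3 to 16. Of these shorter models, 8116 were below 300 bases (median -1.66) and 11308 were of 300 to below 600 (median -0.87). No test over the list was made, and these values are a description.

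**Figure D2:**
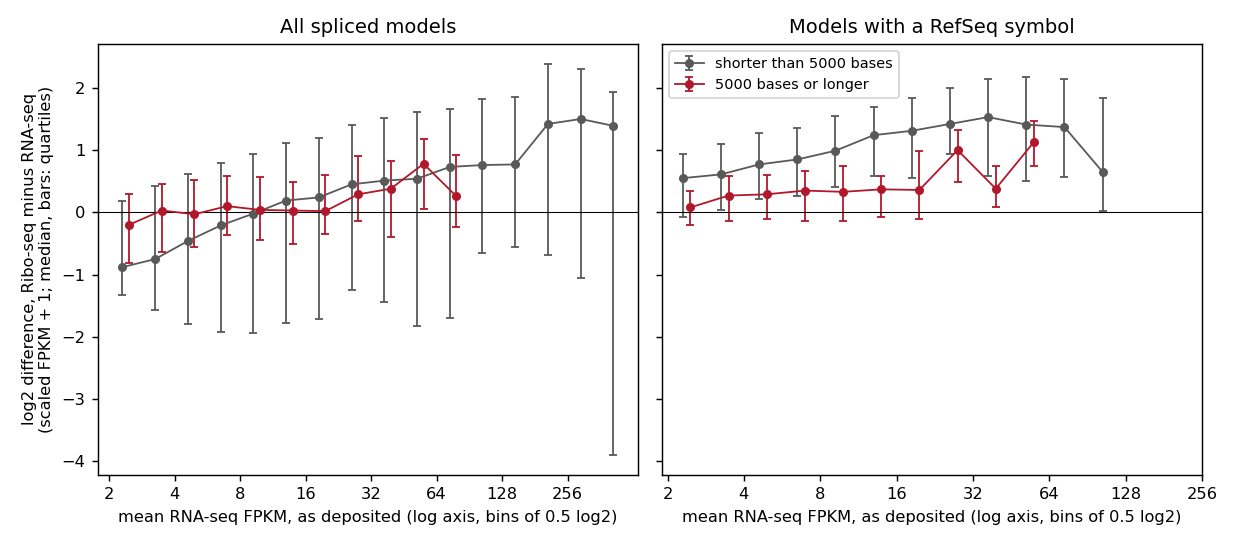
Log2 difference of Ribo-seq minus RNA-seq by RNA-seq level, for spliced models of 5000 bases or longer (red) and shorter ones (grey), as medians with bars to the quartiles in bins that hold at least 4 models. Over all spliced models (left) red lies above grey up to about 11.3 FPKM and mostly below it beyond. Among models with a RefSeq symbol (right) red lies below grey in each bin shown.

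Calls differed between long transcripts with and without a gene match. Of the 408 long transcripts with no match, 55 were called higher and 139 lower (13.5% and 34.1%, against 23.9% and 33.7% of all tested models), with a median of -0.29 at an RNA-seq FPKM of at least 2. Of the 452 with a symbol, 128 were called higher and 37 lower (28.3% and 8.19%), with a median of 0.31. Of all 5703 tested models with a symbol, 52.5% were called higher and 6.01% lower. Of the 32 that matched a gene with a better model, 15 were called higher and 2 lower, and the median was 0.69. A set of 36 long transcripts with RNA-seq FPKM of 2.02 to 5.12 had a mean below 0.2 FPKM in Ribo-seq, a limit chosen after the values were seen. Of these, 32 matched no gene, and uimc1 was the single one with a symbol. Over all models with at least 2 FPKM of RNA, footprints were below that limit in 21.3% of the shorter and 3.31% of the long ones, and with a symbol in 1.04% and 0.237%.

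Across length, footprints relative to RNA in models with a symbol were highest at 600 to below 1000 bases and lower in longer models. The median log2 difference was 1.32 in 343 models of 600 to below 1000 bases, 1.17 in 1519 of 1000 to below 2000, and 0.82 in 1337 of 2000 to below 3000. It was 0.51 at 3000 to below 4000 bases and 0.34 at 4000 to below 5000. In the long transcripts it was 0.31 in 206 of 5000 to below 6000 bases, 0.34 in 120 of 6000 to below 7500, 0.27 in 74 of 7500 to below 10000, and -0.02 in 22 of at least 10000. The classes next to the limit of 5000 bases thus differed little, and their quartiles overlapped. In models with no gene match, the medians were -1.66 below 300 bases, -0.02 at 1000 to below 2000 and -0.27 at 5000 to below 6000. Without scaling the medians were lower throughout, at 0.48 for 1000 to below 2000 bases and -0.33 for 5000 to below 6000 among models with a symbol.

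**Figure D3:**
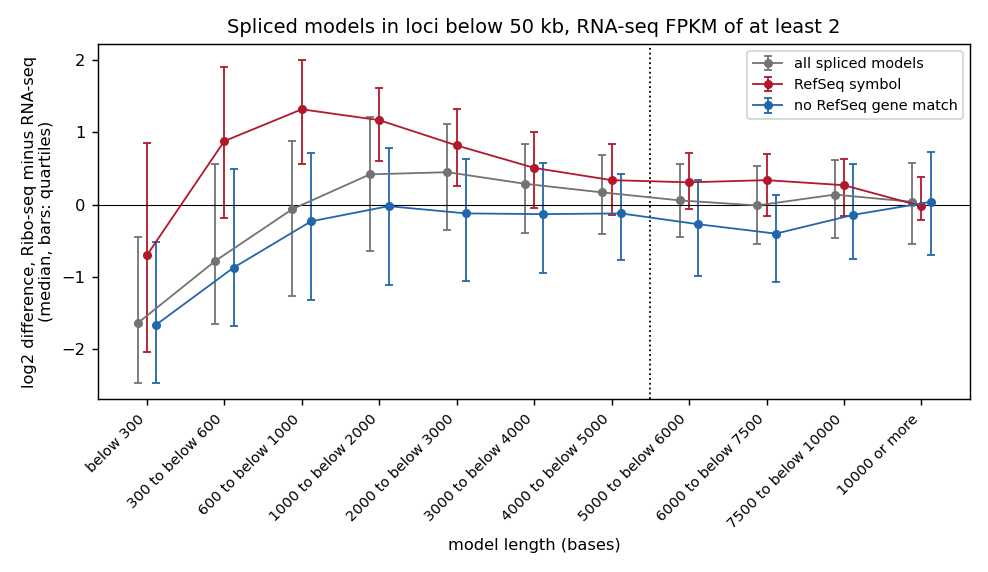
Median log2 difference of Ribo-seq minus RNA-seq by model length, with bars to the quartiles, for all spliced models in loci below 50 kb with RNA-seq FPKM of at least 2 (grey), those with a RefSeq symbol (red) and those with no RefSeq gene match (blue). The dotted line marks 5000 bases, and red falls from 1.32 at 600 to below 1000 bases to 0.31 just right of that line.

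Within the long transcripts, Spearman's rank coefficient between length and the difference was 0.00 over 1086 transcripts, which share their libraries and are not independent replicates. The coefficient was 0.15 with RNA level, 0.16 with locus span and -0.18 with the exonic share of the locus. In the 272 with the highest exonic share, 47.3% to 98.9%, the median was -0.14, with 45 called higher and 89 lower (16.5% and 32.7%, the second near the 33.7% of all tested models). In the 272 with the lowest share, up to 26.5%, it was 0.11, with 75 called higher and 40 lower (27.6% and 14.7%). Among long transcripts with a symbol the corresponding groups of 106 had medians of 0.28 and 0.20, the opposite order. Their calls were 27 higher and 13 lower at the highest share (25.5% and 12.3%) and 33 higher and 8 lower at the lowest (31.1% and 7.55%). Among all tested models with a symbol, 52.5% were called higher and 6.01% lower. A length that 3 divides was found in 39.4% of the long and 74.0% of the shorter models. Long transcripts of such a length had a median of 0.01, and the others one of 0.09. The difference from shorter models of matched RNA level was 0.49 with such a length on both sides and -0.31 with other lengths. That split was chosen after the data were seen, and its cause was not tested. Long spliced models in loci of 50 kb or more, 21 at this RNA level, had a median of -0.10, and the 10 with a symbol had one of -0.03.

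The largest log2 differences among named long transcripts were those of eps15, mrc2, uba1, copa, bag6, npc1, hcfc1 and snrnp200. They are the 8 with the largest log2 difference of the 42 that were called higher with RNA-seq FPKM of 2 or more and no overlap between the assays' libraries. Of all 452 with a symbol, 128 were called higher (28.3%, against 52.5% of all tested models with a symbol). How many of all models with a symbol met the further limits was not counted. eps15, an adaptor of clathrin-coated pits (6284 bases, chromosome 4, 31357276 to 31382849), had 9.96 and 9.58 FPKM in RNA-seq 1 and 2 and 29.1 and 42.2 in Ribo-seq 1 and 2. Both footprint values lay well above both RNA values, with a log2 difference of 2.49 ± 0.13 (SE, limma, adjusted p = 0.0039). uba1, the main ubiquitin-activating enzyme (chromosome 7, 13776968 to 13806114), had 24.2 and 24.8 FPKM in RNA-seq and 49.1 and 88.1 in Ribo-seq. Its difference was 2.17 ± 0.17 (adjusted p = 0.0039). mrc2, an endocytic receptor for collagen (chromosome 8, 5659761 to 5677806), had 6.13 and 3.70 FPKM in RNA-seq and 18.1 and 12.6 in Ribo-seq. Its RNA-seq libraries stood further apart, and the difference of 2.18 had an SE of 0.42 (adjusted p = 0.018).

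The others of that group were copa, npc1, bag6, hcfc1 and snrnp200. copa, the alpha subunit of the coatomer coat of Golgi vesicles (chromosome 17, 3212126 to 3238060), had 19.1 and 21.2 FPKM in RNA-seq and 34.6 and 55.7 in Ribo-seq, a difference of 1.86 ± 0.16 (SE, limma, adjusted p = 0.0039). npc1, the lysosomal cholesterol transporter, had 5.17 and 4.88 FPKM in RNA-seq and 8.65 and 14.2 in Ribo-seq. bag6, a chaperone of newly made membrane proteins, had 7.24 and 6.07 against 11.4 and 19.2. Their differences were 1.70 and 1.77. hcfc1, a transcriptional coregulator, had a difference of 1.69, and snrnp200, a helicase of the spliceosome whose model overlaps no other, one of 1.68. The rest of the group have models that overlap from 1 (uba1) to 5 (eps15) others. Without scaling the 8 differences were 0.91 to 1.74, and eps15, mrc2 and uba1 were still called higher. Without RNA-seq replicate 1 the calls of all but eps15 were lost, and without RNA-seq replicate 2 those of all but eps15 and copa.

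The lowest log2 differences among named long transcripts were those of ammecr1, rhof, dusp26, kif1c, leng8, dusp7, tet2 and uimc1. They are the 8 lowest of the 36 that were called lower and met the same limits. Of all 452 with a symbol, 37 were called lower (8.19%, against 6.01% of all tested models with a symbol). The order by plain ratio differs, since adding 1 to FPKM shrinks the differences of low models. With a pseudocount of 0.1 uimc1 had -3.02 and leng8 -1.62. kcp, with 2.49 and 1.94 FPKM in RNA-seq and 0.178 and 0.268 in Ribo-seq, had a difference of -1.03. ammecr1 (8040 bases, chromosome 14, 19518535 to 19532853) had 11.4 and 12.5 FPKM in RNA-seq 1 and 2 and 1.29 and 1.01 in Ribo-seq 1 and 2, a log2 difference of -1.97 ± 0.26 (SE, limma, adjusted p = 0.0068). leng8 (chromosome 16, 19425377 to 19435250), whose model overlaps no other, was among the 6 named long transcripts with the most RNA, at 42.3 and 45.3 FPKM, but had 6.97 and 9.37 FPKM of footprints. Its difference was -1.54 ± 0.14 (adjusted p = 0.0041). tet2, an enzyme that oxidises methylated cytosine in DNA (chromosome 1, 15765562 to 15794391), had 5.97 and 6.09 FPKM in RNA-seq and 0.778 and 0.675 in Ribo-seq. Its model also overlaps no other, and its difference was -1.48 ± 0.21 (adjusted p = 0.0086).

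The others of this group were rhof, dusp26, dusp7, kif1c and uimc1. rhof, a small GTPase of filopodia, filled 84.1% of its locus of 7526 bases with exons and had 5.52 and 5.46 FPKM in RNA-seq and 0.311 and 0.589 in Ribo-seq, a difference of -1.70. The phosphatase genes dusp26 and dusp7 filled 72.5% and 67.9% of theirs. dusp26 had 8.32 and 8.62 FPKM in RNA-seq and 1.08 and 0.857 in Ribo-seq, and dusp7 had 7.23 and 9.75 against 0.970 and 1.43. Their differences were -1.68 and -1.52. kif1c, a kinesin motor, had 12.02 and 8.28 FPKM in RNA-seq and 1.35 and 1.28 in Ribo-seq. uimc1, a ubiquitin-binding protein of DNA repair, had 2.66 and 3.68 FPKM in RNA-seq and 0.158 and 0.144 in Ribo-seq. Apart from leng8 and tet2, the models of this group overlap 1 other model each, or 2 for kif1c. In each of these 8 genes both footprint values lay below both RNA values, as the rule that named them required. All 8 were also called lower without scaling, where the differences were -2.60 to -1.85. Against named shorter models of matched RNA level, the 8 lay at -3.22 (ammecr1) to -2.08 (uimc1). The calls of ammecr1, dusp26, kif1c, dusp7 and tet2 were lost without either RNA-seq library in turn.

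**Figure D4:**
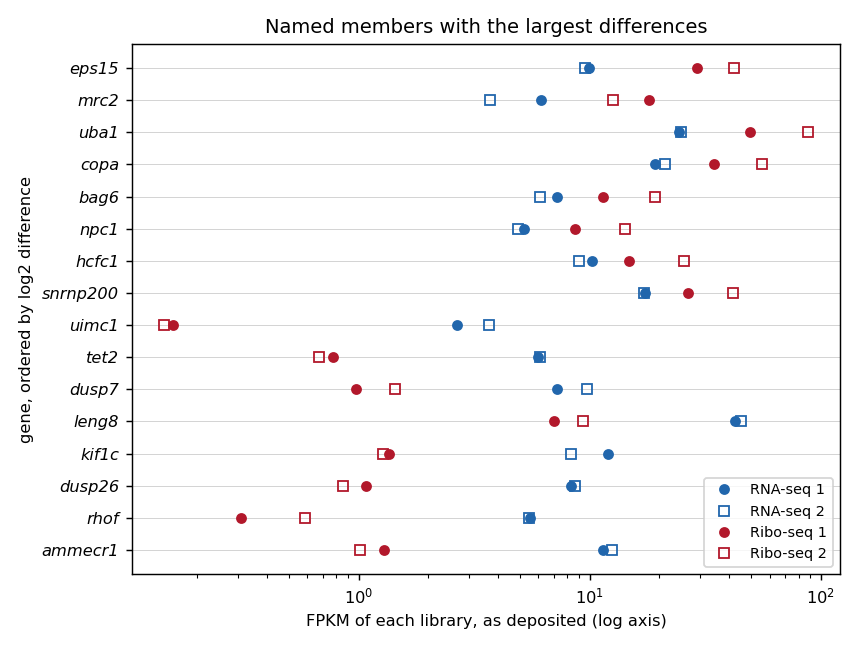
FPKM of each library, as deposited, on a logarithmic axis for the 16 named long transcripts with the largest differences, ordered by log2 difference, with RNA-seq in blue and Ribo-seq in red. In the upper 8 genes both red points lie to the right of both blue ones, and in the lower 8 to the left, as the rule that named them required.

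The lowest and highest differences among long transcripts without a name lay on chromosomes 2 and 24. A model of 5371 bases on chromosome 2 (13844955 to 13857327), which matched no gene and overlaps no other model, had 22.3 and 22.1 FPKM in RNA-seq and 1.01 and 0.738 in Ribo-seq. Its log2 difference of -3.02 ± 0.24 (SE, limma, adjusted p = 0.0039) was lower than that of any transcript with a symbol. A model of 5289 bases on chromosome 24 (23147847 to 23159950), matched to a gene known by a locus number, had 25.9 and 26.2 FPKM in RNA-seq and 57.1 and 108 in Ribo-seq, a difference of 2.34, below that of eps15. The most abundant long transcript, chosen after its values were seen, also matched no gene. It lay on chromosome 6 (22924347 to 22937062) and had 280 and 315 FPKM in RNA-seq and 334 and 616 in Ribo-seq, a difference of 1.41.

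Among the most abundant and the longest named transcripts, log2 differences ranged from 1.57 in sptan1 to -1.54 in leng8. sptan1, which encodes alpha spectrin of the membrane skeleton, had 57.6 and 58.9 FPKM in RNA-seq and 76.9 and 132 in Ribo-seq, a log2 difference of 1.57 ± 0.16 (SE, limma, adjusted p = 0.0044). dync1h1, the heavy chain of the dynein motor that carries cargo along axons, had 55.7 and 57.2 against 70.5 and 111, a difference of 1.43. ddx3x, an RNA helicase of translation initiation, had a difference of 0.82, which was 0.02 without scaling and 0.43 with upper quartile scaling, where its call was lost. elavl3, a neuronal RNA-binding protein gene whose model overlaps no other, had 39.9 and 46.2 FPKM in RNA-seq and 16.7 and 29.7 in Ribo-seq. Its difference of -0.13 missed the threshold (limma, adjusted p = 0.59) and was 0.21 without Ribo-seq replicate 1. elmod1 had a difference of 0.51 that did not pass it (limma, adjusted p = 0.064). Against named shorter models of matched RNA level, sptan1 and dync1h1 lay at 0.17 and 0.03. There ddx3x, elmod1, elavl3 and leng8 lay at -0.59, -0.90, -1.67 and -3.07.

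The 4 longest named models were ahnak, rnf213, herc2 and ubr4, at 17621, 15757, 15298 and 14981 bases. ahnak, a giant scaffold protein under the plasma membrane, had 7.04 and 7.41 FPKM in RNA-seq and 2.80 and 3.84 in Ribo-seq, a log2 difference of -0.27 (limma, adjusted p = 0.23). It was called lower without scaling, at -0.94 (limma, adjusted p = 0.046), and with upper quartile scaling, at -0.60. The ubiquitin ligases rnf213, herc2 and ubr4 had differences of -0.12, 0.60 and 0.42, of which herc2 was called (limma, adjusted p = 0.042). With upper quartile scaling its difference was 0.22 and the call was lost. The values of herc2 and ubr4 turned negative without scaling, as did that of elmod1. Against named shorter models of matched RNA level, ahnak, rnf213, herc2 and ubr4 lay at -1.12, -0.88, -0.71 and -0.89.

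The named long transcripts were also grouped by role into 11 lists. They hold 163 long transcripts. Without scaling, limma called 0 of them higher, with 1 higher at an unadjusted p below 0.05, and 19 lower, where the scaled values gave 58 higher and 7 lower. Those 19 included 5 kinases and GTPase regulators, 3 ubiquitin ligases and proteases and 2 channels and transporters. Upper quartile scaling gave 33 higher and 20 lower calls. Of all tested models, 4.79% were called higher and 41.8% lower without scaling. With upper quartile scaling those shares were 17.9% and 38.7%. Without RNA-seq replicate 1, limma called 0 in either direction, with 29 higher and 3 lower at an unadjusted p below 0.05. Without RNA-seq replicate 2, copa was the single one called, with 33 higher and 4 lower unadjusted. The counts of the lists below hold with all 4 libraries and median scaling, and read against 52.5% higher and 6.01% lower among all tested models with a symbol. They include members with a mean RNA-seq FPKM below 2, which the medians leave out. For example, 18 of 21 kinases and GTPase regulators and 9 of 12 matrix genes reached that level.

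Cytoskeletal scaffolds and motors held members called in both directions. Relative to named shorter models of matched RNA level, sptan1, map1b and dync1h1 lay at 0.17, 0.04 and 0.03. There myo5a, mprip and kif1c lay at -0.57, -1.15 and -2.62. Of 9 scaffold genes, 2 were called higher, sptan1 and map1b, and 1 lower, dmd, with a median of 0.04 against 0.89 in 5 shorter models of the list. map1b, a microtubule-associated protein of axons whose model overlaps no other, had 18.4 and 20.3 FPKM in RNA-seq and 22.4 and 38.3 in Ribo-seq, a log2 difference of 1.34. mprip, which targets myosin phosphatase, had a difference of 0.38, which missed the threshold and was -0.41 without scaling. Of 6 motors, dync1h1, myh9 and myo5a were called higher and kif1c and kif13a lower. The vesicle-carrying myosin myo5a had 25.2 and 25.5 FPKM in RNA-seq and 20.7 and 34.9 in Ribo-seq, a difference of 0.86. The median of the motors, 0.66, was -0.02 without scaling.

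Ubiquitin pathway and chromatin genes mostly did not pass the test, as was so for 287 of all 452 named long transcripts. Of 20 ubiquitin ligases and proteases, 6 were called higher and usp31 lower. Their median was 0.39 (-0.34 without scaling) against 0.67 in 28 shorter models of the list. trip12, a nuclear ubiquitin ligase, had 24.4 and 24.5 FPKM in RNA-seq and 22.4 and 32.5 in Ribo-seq, a log2 difference of 0.91. The ligase huwe1 had 20.03 and 20.05 FPKM in RNA-seq and 12.1 and 21.2 in Ribo-seq. Its assays overlapped, and its difference of 0.46, which missed the threshold, was -0.30 without scaling. Of 28 chromatin regulators, 9 were called higher and tet2 alone lower. Their median was 0.31 (-0.34 without scaling) against 0.33 in 20 shorter models. atrx, a remodeller of heterochromatin whose model overlaps no other, had 36.2 and 36.6 FPKM in RNA-seq and 44.0 and 84.8 in Ribo-seq, a difference of 1.52. The remodellers chd4 and chd5 had differences of 0.58 and 0.18, which turned to -0.19 and -0.59 without scaling. Relative to named shorter models of matched RNA level, trip12 and huwe1 lay at -0.51 and -0.84. There atrx, chd4 and chd5 lay at -0.01, -0.84 and -1.25.

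Genes of RNA metabolism and of transcription showed a similar range. Of 17 genes of the RNA and translation machinery, 6 were called higher and zc3h12b lower, with a median of 0.49 (-0.19 without scaling) against 0.97 in 55 shorter models of the list. cnot1, the scaffold of the deadenylase complex, had 14.0 and 13.2 FPKM in RNA-seq and 10.9 and 16.4 in Ribo-seq, a log2 difference of 0.73 that turned to -0.02 without scaling. The splicing helicase dhx38 had a difference of 0.47, which missed the threshold and was -0.26 without scaling. Of 12 transcription factors, limma called 4 higher and 0 lower (0 lower at an unadjusted p below 0.05 as well). Their median was 0.17 (-0.44 without scaling) against 0.22 in 48 shorter models. srebf2, a regulator of cholesterol synthesis genes, had 12.13 and 12.04 FPKM in RNA-seq and 11.8 and 17.7 in Ribo-seq, a difference of 0.99. The differences of znf831 and tcf20 were 0.82 and 0.04, and that of tcf20 was -0.66 without scaling. Relative to named shorter models of matched RNA level, cnot1 and dhx38 lay at -0.51 and -0.77. There srebf2, znf831 and tcf20 lay at -0.25, -0.17 and -0.95.

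Of 24 membrane trafficking genes, limma called 10 higher and 0 lower (0 lower unadjusted). Their median was 0.53 (-0.13 without scaling) against 1.06 in 38 shorter models of the list. synj1, the lipid phosphatase that uncoats endocytic vesicles at synapses and whose model overlaps no other, had 27.6 and 30.6 FPKM in RNA-seq and 33.6 and 57.3 in Ribo-seq. The log2 difference was 1.36 ± 0.17 (SE; limma, adjusted p = 0.0065), with no overlap between the assays. sorl1, a sorting receptor of endosomes, had 25.3 and 25.4 FPKM in RNA-seq and 31.0 and 50.2 in Ribo-seq, and cltcl1, a clathrin heavy chain gene, one of 1.15. The ER exit coat genes sec24c and sec31a were also called higher. Of 10 channels and transporters, 5 were called higher and 0 lower (2 lower unadjusted), and without scaling 0 higher and 2 lower. Their median was 0.40 (-0.19 without scaling) against 0.83 in 110 shorter models. slc6a17, a transporter of synaptic vesicles, had 39.5 and 44.3 FPKM in RNA-seq and 34.6 and 66.7 in Ribo-seq, a difference of 0.98. The amino acid transporter slc7a5 had one of 0.87, and slc44a1, a choline transporter, one of 0.05 (-0.68 without scaling). Relative to named shorter models of matched RNA level, synj1, sorl1 and cltcl1 lay at -0.06, -0.03 and -0.28. There slc6a17, slc7a5 and slc44a1 lay at -0.55, -0.37 and -1.19.

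Matrix, adhesion and guidance genes had the highest median of the 11 lists, 0.99 over 9 genes (0.35 without scaling), against 0.27 in 17 shorter models of the list. Of 12 such long transcripts, limma called 8 higher and 0 lower (10 and 0 unadjusted). Among the 8 were fn1, which encodes fibronectin, col1a2 and col4a1, which encode collagen chains, and lama4, a laminin chain of vessel basement membranes. Of the 12, 9 averaged 2 FPKM or more of RNA. Both fn1 (1.82 and 1.44 FPKM in RNA-seq 1 and 2) and itgb4 (1.70 and 1.55) lay below that level and were called higher. They met the limit on mean FPKM only together with their footprints. How many of the 8 calls fell among the 9 was not counted. cntn2, an adhesion protein of axons, had 16.7 and 16.9 FPKM in RNA-seq and 22.5 and 36.0 in Ribo-seq, a log2 difference of 1.49. ptprb, a receptor phosphatase of endothelium, had 5.20 and 5.11 FPKM in RNA-seq and 5.94 and 8.26 in Ribo-seq, a difference of 1.06. The difference was 0.36 for the guidance gene sema6d and -0.33 without scaling. Markers of endothelium and vessel wall (acta2, cldn5 and kdr) summed to 96.5 and 69.2 FPKM in RNA-seq and 519 and 750 in Ribo-seq, and their part in the result was not tested. Of all 11 lists, this was the only one whose long transcripts had a positive median, 0.19, relative to named shorter models of matched RNA level. In the other 10 that median was -1.12 to -0.23, and no list was tested against another.

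Signalling and metabolic genes completed the lists. Of 21 kinases and GTPase regulators, 3 were called higher and atm lower, with a median of 0.07 (-0.49 without scaling) against 0.23 in 39 shorter models of the list. All 18 with sufficient RNA lay below the named shorter models of matched RNA level. Most named long transcripts did so, since 63 of all 422, or 14.9%, lay above. mink1, a kinase of neuronal signalling, had 41.0 and 44.3 FPKM in RNA-seq and 25.8 and 46.2 in Ribo-seq, which overlapped, with a log2 difference of 0.49 that turned to -0.30 without scaling. sipa1l3 had a difference of -0.49 that missed the threshold, but was called lower without scaling, at -1.21 (limma, adjusted p = 0.042), and with upper quartile scaling, at -0.85. tbc1d8b had one of 0.77 that passed the test, and lost its call without scaling (0.03) and with upper quartile scaling (0.41). Of 4 lipid and central metabolism genes, fasn, the fatty acid synthase, and cad, an enzyme of pyrimidine synthesis, were called higher by limma and 0 lower (0 lower unadjusted). fasn had 5.37 and 5.86 FPKM in RNA-seq and 6.13 and 9.45 in Ribo-seq, a difference of 1.07, while gpam and acacb had -0.10 and 0.01, and acacb had -0.62 without scaling.

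**Figure D5:**
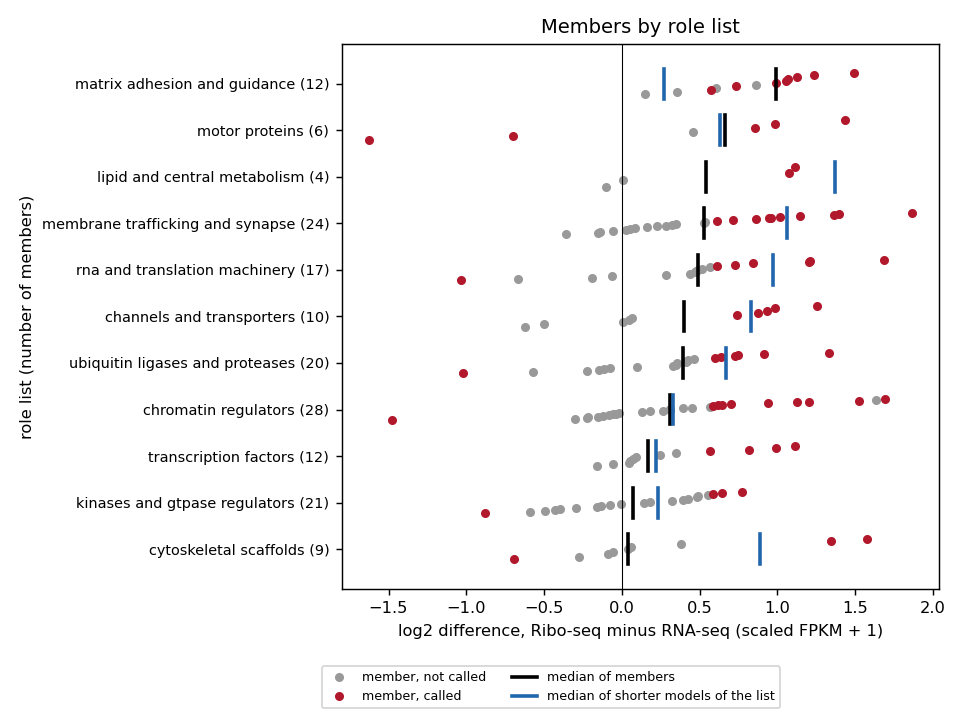
Log2 difference of Ribo-seq minus RNA-seq for each long transcript of 11 role lists (red where called), with the median of the long transcripts with RNA-seq FPKM of at least 2 (black) and that of shorter models of the same list (blue). Black lies left of blue in all lists except matrix, adhesion and guidance (0.99 against 0.27) and motors (0.66 against 0.63).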

How the data were processed

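The deposited values are FPKM per library and transcript model, per the file headers. TopHat2 2.1.0 and Cufflinks 2.2.1 were used, per the submitters' processing notes, which give no roles. The build and the annotation: not given in the sources used here. The build was inferred by position: 2137 models ended no more than 10 bp from where a coding gene of ASM223467v1 ended, against 62 after a shift of 20 kb, with more on 24 of 24 chromosomes. Coordinates are those of the models, counted from 1.

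Libraries were divided by median-ratio factors (1.40 and 1.32 for RNA-seq, 0.651 and 0.925 for Ribo-seq). Using limma 3.58.1 (R 4.3.3), a model with assay as the single term and a mean-variance trend was fitted to the log2 of scaled FPKM plus 1 over the 50625 models with a mean FPKM of at least 1. A call is a Benjamini-Hochberg adjusted p below 0.05. A fold change on this scale understates that of low models. Medians used models whose RNA-seq FPKM averaged 2 or more, and matching used bins with at least 20 shorter models. Python 3.11.15, numpy 2.4.6 and pandas 2.3.3 did the rest. The fit and the matching were tested on simulated data.

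The long transcripts, role lists and comparisons were chosen with earlier results of these data known. Genes were named by rule: per direction the 8 with the largest difference among those called, with RNA-seq FPKM of 2 or more, values above 0 and no overlap between assays; the 6 with the most RNA; the 4 longest; and in each role list the 3 with the most RNA. Others named in a list were chosen after their values were seen. The coding share of each model, and sequences, were not analysed here, and some genes of the lists are not reported here. Alternatives covered scaling, pseudocount, filters, overlap, matching, the replicate number as a block and each library left out.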

Additional observations from a re-analysis of the deposited data

How the results depend on the processing

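The call counts of long transcripts, 260 higher and 219 lower, moved to 148 and 378 with upper quartile scaling (all models 17.9% and 38.7%), 7 and 357 without scaling (4.79% and 41.8%), and 23 and 31 in models that overlap no other (102 long transcripts; all such models 20.6% and 45.7%). For mean FPKM from 5 up (675 long transcripts) they were 219 and 94 (all models 43.5% and 20.4%). With one library left out they ranged from 4 to 390 higher and 42 to 178 lower, lowest without either RNA-seq library. The replicate number as a block gave 214 higher and 169 lower. Deviations of same-numbered libraries correlated at 0.0677 over all tested models and 0.279 over the long transcripts. With 2 numbers and no label that ties them to a fish or day, the numbers were not taken to pair samples. Among 53 genes named by rule, herc2 lost its call with the block.

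The median of the long transcripts, 0.05, was -0.61 without scaling, -0.27 with upper quartile scaling, 0.29 for mean FPKM from 5 up, and 0.00 to 0.28 with one library left out. The matched difference over all spliced models, 0.22, was 0.20 without scaling, 0.30 with a pseudocount of 0.1, 0.75 in models that overlap no other, 0.25 with bins of 1, 0.17 and 0.18 when one RNA-seq library was used for matching and the other for the difference, 0.18 for long transcripts of at least 7500 bases, and 0.15 to 0.30 with one library left out. It turned to -0.21 at a mean FPKM of at least 5, -0.11 at an RNA-seq FPKM of at least 10, -0.39 against shorter models of 1000 to below 5000 bases, and -0.62 in best models of a RefSeq gene. Of alternatives chosen after seeing the data, a RefSeq symbol on both sides gave -0.61, and -0.60 against such shorter models. No gene match gave 0.25, a length that is a multiple of 3 gave 0.49, and other lengths gave -0.31. The cause of these moves was not tested.

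Of the 53 genes, 23 lost their call, ahnak and sipa1l3 gained one and 14 changed sign without scaling: elmod1 (-0.28), herc2 (-0.17), ubr4 (-0.34), mprip (-0.41), huwe1 (-0.30), chd5 (-0.59), chd4 (-0.19), cnot1 (-0.02), dhx38 (-0.26), slc44a1 (-0.68), sema6d (-0.33), mink1 (-0.30), acacb (-0.62) and tcf20 (-0.66). With upper quartile scaling mprip (-0.01), chd5 (-0.20), slc44a1 (-0.31), acacb (-0.31) and tcf20 (-0.30) did. With one library left out, slc44a1 ranged from -0.06 to 0.34, acacb from -0.08 to 0.28, gpam from -0.25 to 0.21, elavl3 from -0.29 to 0.21 and rnf213 from -0.17 to 0.07. The relation of coding share to the difference was not run, for lack of protein lengths. Depth is unknown, so no counting error could be given.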

Other observations

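Nuclear pore and centrosome genes were grouped after the names of the long transcripts were known. Their call counts read against 52.5% higher and 6.01% lower among all tested models with a symbol. Of 8 long transcripts of nuclear pore genes, limma called 3 higher in Ribo-seq and 0 lower (6 and 0 at an unadjusted p below 0.05). Their median log2 difference was 0.62 (-0.07 without scaling) against 0.77 in 11 shorter models of the list. nup153, which lines the nuclear basket of the pore, had 6.59 and 5.95 FPKM in RNA-seq and 6.71 and 11.1 in Ribo-seq, a difference of 1.11. The difference was 0.62 for nup98 and 0.38 for tpr, neither of which passed the test. Of 16 centrosome and cilium genes, limma called 3 higher and 0 lower (3 and 1 unadjusted). Their median was -0.12 over 12 genes (-0.69 without scaling) against -0.28 in 14 shorter models. Without scaling 6 of the 16 were called lower, where 41.8% of all tested models were. Relative to named shorter models of matched RNA level, however, the median of the 12 was -0.87, with 11 below. For the nuclear pore genes that median was -0.23, with 4 of 7 below. Of all 422 named long transcripts, 63, or 14.9%, lay above those shorter models. ckap5, a microtubule polymerase, had 23.1 and 24.3 FPKM in RNA-seq and 25.2 and 47.5 in Ribo-seq, a difference of 1.31. pcm1, a centriolar satellite protein, had a difference of 0.95, and togaram1 one of -0.06. With either RNA-seq library left out, limma called 0 genes of both lists, with 3 higher and 1 lower at an unadjusted p below 0.05.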
